A study of Mus musculus with 8 samples.

Results

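The expression levels of 10 immediate early response genes were compared between the limbus and the central cornea of the mouse. The genes were Fos, Fosb, Jun, Junb, Egr1, Atf3, Ier2, Nr4a1, Dusp1 and Zfp36. They were found by an exact match of the gene symbol, and all 10 were present among the 23420 named genes of the data. All 10 also had more than 3 reads in both tissues, the limit used here for giving a ratio, which 13862 genes passed.

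The tissue came from 8-week-old wild type C57BL/6J mice, and no treatment is named. The 2 groups were corneal buttons, the cornea inside the limbus, and limbal rims, the ring of tissue where the cornea meets the sclera and conjunctiva. Buttons and rims of several eyes were pooled by tissue before total RNA was extracted, so the values describe pools of tissue and not single animals. The sample labels number 4 samples per tissue as L001 to L004, a form also used for sequencing lanes, but the deposited values were built from 2 libraries, 1 per tissue.

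With 1 library per tissue there was no spread between replicates and no test across replicates. Reads are given as found in each library, and normalized reads are reads divided by the size factor of their library, which was 1.03 (cornea) or 0.967 (limbus). Each difference is given as the log2 ratio of normalized reads, limbus over cornea, with an exact Clopper-Pearson 95% confidence interval (CI) of the limbal share of the reads. The intervals cover counting error only, since reads copied by PCR and not tagged with molecular identifiers need not come from separate molecules. A difference is said to lie beyond counting error where its interval does not hold 0. Depth over the named genes was 26104317 reads for the corneal library and 21182025 for the limbal library.

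Immediate early genes are transcribed within minutes of a growth factor, cytokine, injury or other stress reaching a cell, without the need for new protein synthesis. Their promoters are held ready by factors such as SRF and CREB, which MAP kinases and other kinases activate. Most of the products are transcription factors that act on a later wave of genes, while others are inhibitors that end the response. The transcripts are short-lived, and tissue dissection itself is known to induce them. In the corneal epithelium they are known as early markers of wounding.

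FOS and JUN family proteins are leucine zipper factors that pair to form AP-1, and ATF3 belongs to a related family that can pair with JUN proteins. EGR1 is a zinc finger factor, and NR4A1 is an orphan nuclear receptor. IER2 is a small nuclear protein. DUSP1 is a phosphatase that inactivates MAP kinases, and ZFP36 (tristetraprolin) binds AU-rich elements in short-lived mRNAs and promotes their decay.

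The bases just upstream of the start site are shown for 7 of these genes as a description, and their part in the differences between the tissues was not tested. RefSeq promoter sequences (GRCm38.p6) were used here for 8 of the 10 genes, namely Atf3, Dusp1, Fos, Fosb, Jun, Junb, Nr4a1 and Zfp36. In the 250 bases upstream of each start, 4 motifs were searched on both strands. These were the CArG box, which SRF binds, the cyclic AMP response element TGACGTCA, the AP-1 site TGANTCA and the TATA box TATAAA. Capitals mark a match in the first 3 stretches, which are the CArG box of Zfp36 (chr7:28379267-28379296, minus strand), the cyclic AMP response element of Dusp1 (chr17:26508598-26508625, minus strand) and the TATA box of Fos (chr12:85473847-85473872, plus strand).
Zfp36: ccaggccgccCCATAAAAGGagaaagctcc
Dusp1: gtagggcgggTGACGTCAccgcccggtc
Fos: acagcgcttcTATAAAggcgccagct

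The next 4 stretches are the 60 bases before the start of the genes with the larger differences, and none of the 4 motifs was matched in their 250 bases. Capitals mark the shorter core of the cyclic AMP response element, TGACG or CGTCA on the other strand, which was searched only after these stretches had been seen. They lie at chr15:101266786-101266845 on the plus strand for Nr4a1, and on the minus strand at chr1:191183334-191183393 for Atf3, chr7:19310046-19310105 for Fosb and chr4:95052223-95052282 for Jun.
Nr4a1: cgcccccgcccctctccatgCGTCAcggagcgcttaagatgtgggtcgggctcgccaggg
Atf3: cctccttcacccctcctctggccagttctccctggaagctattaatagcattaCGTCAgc
Fosb: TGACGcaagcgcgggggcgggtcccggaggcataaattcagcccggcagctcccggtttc
Jun: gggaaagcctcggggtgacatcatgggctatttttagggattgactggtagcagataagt

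By the GENCODE annotation of the same build, the stretches of Fos and Jun lie before the gene, as does that of Fosb but for 6 bases. Those of Dusp1 and Nr4a1 lie in an intron of longer transcripts, that of Atf3 in an intron but for 7 bases, and that of Zfp36 in an exon of a longer transcript. The CArG box was matched in 1 of the 8 windows and in 1.47% of all 32851 windows of the same length. The cyclic AMP response element was also matched in 1 of 8, against 1.55% of all windows, and the TATA box in 1 of 8, against 12.4%. The AP-1 site was matched in 0 of 8, against 6.75% of all windows. The short core overlaps the full one in Dusp1 and was matched in 6 of the 8 windows, those of Atf3, Dusp1, Fos, Fosb, Junb and Nr4a1, against 17.8% of all windows. These matches describe letters in a window and not bound sites, and for the short core both the genes with a match and those without held some above and some below a 2-fold difference.

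Across the 10 genes, 9 were higher in the limbus by normalized reads while Fos alone was higher in the cornea, and each of the 10 differences lay beyond counting error. Over all 13862 genes compared, the limbus was higher for 33.2% and the cornea for 40.6% by the same rule. The rule is harder to meet with few reads, and 7 of the 10 genes had a mean of at least 1000 normalized reads. Of the 10 genes, 5 were at least 2-fold higher in the limbus (Nr4a1, Atf3, Egr1, Fosb and Jun), against 15.5% of all genes compared. None was at least 2-fold higher in the cornea, against 8.99% of all genes compared. The 10 genes had a median log2 ratio of 1.02, while over all genes compared it was -0.05, with quartiles of -0.51 and 0.46.

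Scaling both libraries to total reads in place of the size factors raised every log2 ratio by 0.21. With that scaling the limbus was higher for 45.1% of all genes compared and the cornea for 29.7%, while the 10 genes again gave 9 and 1. Summed over the 10 genes there were 16700 corneal reads, 0.064% of that library, and 22609 limbal reads, or 0.107%. The sums differed less than the median gene, with a log2 ratio of 0.53 (95% CI 0.50 to 0.56), and the genes with the most reads were among those that differed less. In bulk tissue, fewer cells of a type and less RNA per cell cannot be told apart.

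**Figure D1:**
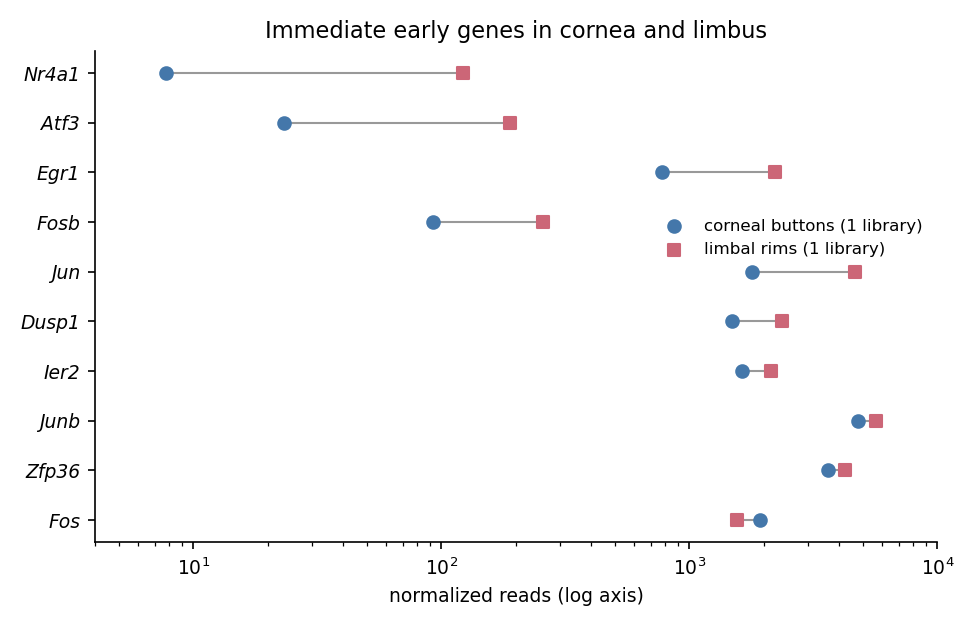
Normalized reads (horizontal log axis) of each immediate early gene in the corneal buttons (blue circles) and limbal rims (red squares), 1 library per tissue, with a gray line joining the pair. The limbal point lies to the right for 9 genes and to the left for Fos, and the gap is widest for Nr4a1, from 7.74 to 122.

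**Figure D2:**
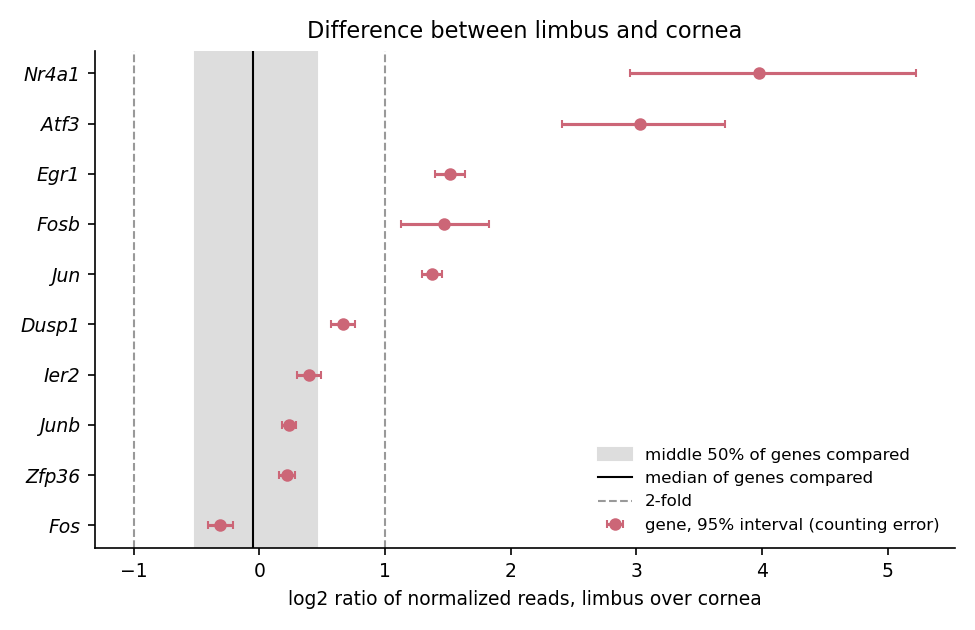
Log2 ratio of normalized reads, limbus over cornea, for each immediate early gene, with 95% intervals for counting error only. The gray band holds the middle 50% of the 13862 genes compared and the solid line their median of -0.05, and 5 genes lie to the right of the dashed 2-fold line.

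The FOS genes went in opposite directions. Fos (chromosome 12, 85473890 to 85477273, plus strand) had 1991 corneal and 1502 limbal reads. After normalization these were 1926 and 1553, a log2 ratio of -0.31 (95% CI -0.41 to -0.21), so that Fos was 1.24-fold higher in the cornea. Fos was the one gene of the 10 that was higher in the cornea, and its ratio stayed below 0 with each of the other 4 scalings tried. Its ratio lay above that of 35.1% of all genes compared.

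Fosb (chromosome 7, 19302696 to 19310051, minus strand) was higher in the limbus. It had 96 corneal and 249 limbal reads, or 92.9 and 257 after normalization. The log2 ratio was 1.47 (95% CI 1.13 to 1.83), a 2.77-fold difference. For every 100 reads of Fos the corneal library had 4.82 reads of Fosb and the limbal library 16.6, a 3.44-fold difference that does not depend on how the libraries are scaled to each other.

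The other FOS family genes were Fosl2, which encodes FRA-2, and Fosl1, which encodes FRA-1. Fosl2 had the most reads of the family in both tissues, 13272 corneal and 7246 limbal ones, at a log2 ratio of -0.78 (95% CI -0.82 to -0.74). Fosl1 had 4 corneal and 3 limbal reads, a log2 ratio of -0.32 (95% CI -3.09 to 2.24), so that no difference was detectable at this depth. Among all reads of the 4 genes, Fosl2 took 86.4% in the cornea and 80.5% in the limbus. The share of Fos was 13.0% (95% CI 12.4 to 13.5) in the cornea and 16.7% (15.9 to 17.5) in the limbus, and that of Fosb was 0.625% (0.506 to 0.763) and 2.77% (2.44 to 3.13). Fos thus had a larger share of a family total that was smaller in the limbus, 9000 reads against 15363. Per length of exon, Fos took 37.9% of the corneal and 44.7% of the limbal family total, and Fosl2 61.3% and 52.4%.

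Both JUN genes among the 10 were higher in the limbus, Jun by more than Junb. Jun (chromosome 4, 95049034 to 95052222, minus strand) had 1856 corneal and 4505 limbal reads. Normalized, these were 1795 and 4657, a log2 ratio of 1.38 (95% CI 1.30 to 1.45) and a 2.59-fold difference. Among the 7 genes of the 10 with a mean of at least 1000 normalized reads, Jun and Egr1 were those above 2-fold.

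Junb (chromosome 8, 84974484 to 84978718, minus strand) had 4947 corneal and 5455 limbal reads. The normalized reads were 4786 and 5639, and the log2 ratio was 0.24 (95% CI 0.18 to 0.29), a 1.18-fold difference. Jund, the third gene of the family, which is known for steadier expression, had 2234 corneal and 3580 limbal reads, a log2 ratio of 0.78 (95% CI 0.70 to 0.85). Jun differed more than its relatives within the libraries too, with 37.5 reads of Jun per 100 of Junb in the cornea and 82.6 in the limbus.

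The share of Jun among the reads of the 3 JUN genes was 20.5% (95% CI 19.7 to 21.4) in the cornea and 33.3% (32.5 to 34.1) in the limbus. Junb had the largest share in both tissues, 54.7% (53.7 to 55.8) and 40.3% (39.5 to 41.1). Jund moved less, from 24.7% (23.8 to 25.6) to 26.4% (25.7 to 27.2). Per length of exon, Jun took 14.3% of the corneal and 23.8% of the limbal family total, and Jund 32.9% and 36.2%. By that measure Jund stood above Jun in both tissues, although by reads Jun was above Jund in the limbus. Junb had the largest share by either measure.

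Set against Fos, Jun had 0.932 reads per read of Fos in the corneal library and 2.999 in the limbal one, a log2 difference of 1.69 (95% CI 1.56 to 1.81). Junb went from 2.48 to 3.63 per read of Fos, a log2 difference of 0.55 (95% CI 0.44 to 0.66). Over the whole families, 15363 reads of the FOS genes stood against 9037 of the JUN genes in the cornea, and 9000 against 13540 in the limbus. The FOS to JUN read ratio was therefore 1.70 for the cornea and 0.665 for the limbus, with a log2 difference of -1.35 (95% CI -1.41 to -1.30). These ratios are of reads and are not corrected for length, which cancels only in the comparison between tissues of 1 pair of genes. Whether a family ratio lies above or below 1 therefore does not tell which family had more transcripts in a tissue.

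**Figure D3:**
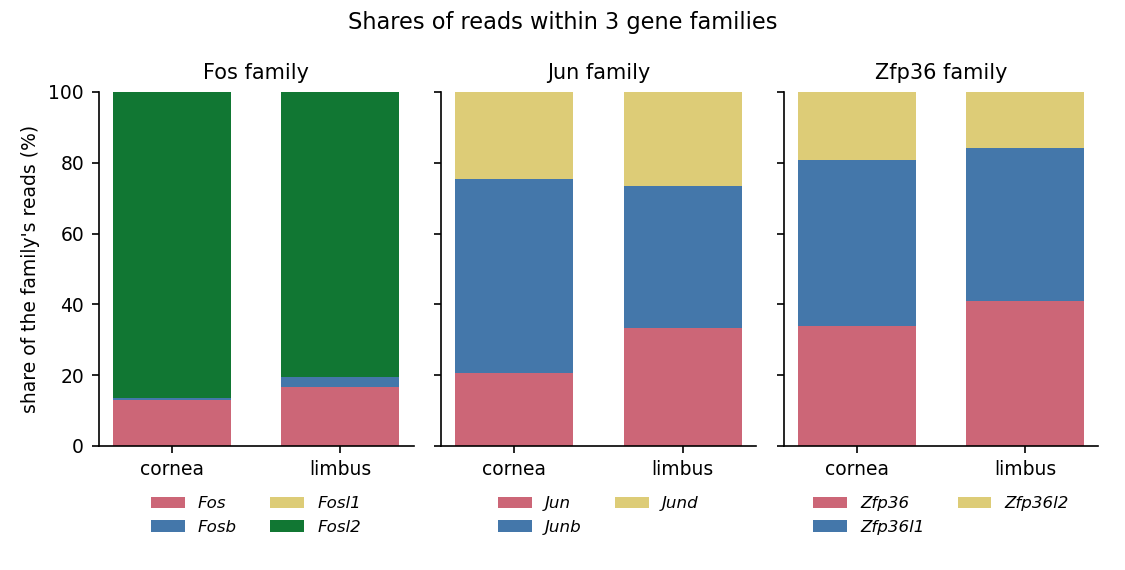
Share of the reads (percent, vertical axis from 0) that each gene took within the Fos, Jun and Zfp36 families in the cornea and limbus libraries, as stacked bars. The share of Jun goes from 20.5% in the cornea to 33.3% in the limbus, that of Zfp36 from 33.7% to 41.0%, and Fosl2 fills most of its family in both tissues.

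Atf3 (chromosome 1, 191170296 to 191218039, minus strand), which is known to be induced by many kinds of stress, had few reads in the cornea. There were 24 corneal and 183 limbal reads, or 23.2 and 189 after normalization. The log2 ratio was 3.03 (95% CI 2.41 to 3.71), an 8.15-fold difference, and 96.5% of all genes compared had a lower ratio. For every 100 reads of Jun, a partner of ATF3, there were 1.29 reads of Atf3 in the cornea and 4.06 in the limbus. Atf3 was thus more different between the tissues than Jun itself, by 1.65 on the log2 scale (95% CI 1.03 to 2.34).

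The zinc finger factor and the nuclear receptor were both more than 2-fold higher in the limbus. Egr1 (chromosome 18, 34859823 to 34864984, plus strand) had 800 corneal and 2141 limbal reads. The normalized reads were 774 and 2213, a log2 ratio of 1.52 (95% CI 1.40 to 1.63) and a 2.86-fold difference. With Egr1, as with Jun, the reads were many in both libraries and the interval was narrow.

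Nr4a1 (chromosome 15, 101254269 to 101274795, plus strand) had the largest ratio of the 10 and the fewest reads. It had 8 corneal and 118 limbal reads, or 7.74 and 122 after normalization. Its log2 ratio, 3.98 (95% CI 2.95 to 5.22), was the least precise of the 10, and 98.8% of all genes compared had a lower one. The fold difference was 15.8, and at the lower end of the interval the gene was still more than 2-fold higher in the limbus. Per 100 reads of Egr1 there was 1.0 read of Nr4a1 in the cornea and 5.51 in the limbus.

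Relatives of these factors were unequal in their direction. Egr2 had 4 corneal and 33 limbal reads, a log2 ratio of 3.14 (95% CI 1.65 to 5.10). Egr3 had 1 and 4 reads, with an interval from -1.24 to 7.72, Nr4a3 had 1 read in each library, and Egr4 was listed at 0 in both. Nr4a2 went the other way from Nr4a1, with 673 corneal and 442 limbal reads, a log2 ratio of -0.51 (95% CI -0.69 to -0.34). In the cornea nearly all NR4A reads were therefore those of Nr4a2, and in the limbus Nr4a1 held 118 reads beside 442.

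Ier2 (chromosome 8, 84661331 to 84662852, minus strand) was high in both tissues and differed little. It had 1683 corneal and 2070 limbal reads, or 1628 and 2140 after normalization. The log2 ratio was 0.39 (95% CI 0.30 to 0.49), a 1.31-fold difference, and 73.0% of all genes compared had a lower ratio. Its relative Ier5 had 4867 corneal and 3213 limbal reads, a log2 ratio of -0.50 (95% CI -0.57 to -0.44). A further relative, Ier5l, added once its values were known, went the other way with 59 corneal and 198 limbal reads (log2 ratio 1.84, 95% CI 1.42 to 2.29). Ier3, an early gene that shares the name but not the family, had 2970 and 2726 reads, which gave a log2 ratio of -0.03 (95% CI -0.10 to 0.05).

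The inhibitors of the response were less than 2-fold higher in the limbus. Dusp1 (chromosome 17, 26505590 to 26562128, minus strand) had 1539 corneal and 2284 limbal reads. The normalized reads were 1489 and 2361, a log2 ratio of 0.67 (95% CI 0.57 to 0.76) and a 1.59-fold difference. Dusp6, a phosphatase of ERK kinases, was lower in the limbus, at 1748 corneal and 950 limbal reads (log2 ratio -0.78, 95% CI -0.90 to -0.67). Other nuclear phosphatases of the family were closer to 0 or had few reads. Dusp5 had 957 and 982 reads, with a log2 ratio of 0.13, and Dusp2 and Dusp4 had fewer than 20 reads in each library.

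Zfp36 (chromosome 7, 28376784 to 28380253, minus strand) had 3756 corneal and 4102 limbal reads. After normalization there were 3633 and 4240, a log2 ratio of 0.22 (95% CI 0.16 to 0.29) and a 1.17-fold difference. Its relatives were lower in the limbus by the size factors, Zfp36l1 with a log2 ratio of -0.18 (95% CI -0.24 to -0.13) and Zfp36l2 with -0.33 (95% CI -0.43 to -0.24), although scaling to total reads would bring Zfp36l1 above 0. Within the family, the share of Zfp36 was 33.7% (95% CI 32.9 to 34.6) in the cornea and 41.0% (40.05 to 42.0) in the limbus.

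Set against Egr1, which was itself 2.86-fold higher in the limbus, both inhibitors had fewer reads per read of Egr1 in the limbal library. This direction depends on the gene chosen and was not particular to the inhibitors. Fos fell against Egr1 too, with 0.402 reads of Egr1 per read of Fos in the cornea and 1.43 in the limbus. Against Fos, both Dusp1 and Zfp36 had more reads per read of Fos in the limbus. There were 1.92 reads of Dusp1 per read of Egr1 in the corneal library and 1.07 in the limbal one, a log2 difference of -0.85 (95% CI -1.003 to -0.699). For Zfp36 there were 4.70 corneal and 1.92 limbal reads per read of Egr1, a log2 difference of -1.29 (95% CI -1.43 to -1.16). Ier2 behaved alike, since Egr1 had 0.475 reads per read of Ier2 in the cornea and 1.03 in the limbus. The 10 genes therefore did not differ between the tissues in 1 common proportion, whichever scaling is used.

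**Figure D4:**
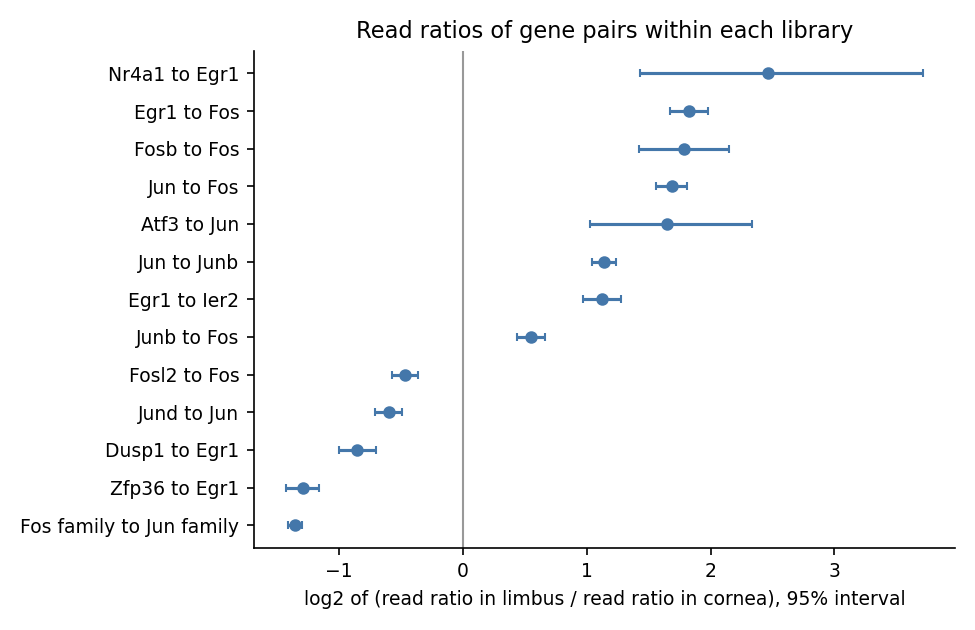
Log2 of the read ratio of each gene pair in the limbus over the same ratio in the cornea (points), with 95% intervals for counting error only, a comparison free of any scaling between libraries. Pairs to the right of 0 have more reads of the first gene per read of the second in the limbus than in the cornea, such as Nr4a1 to Egr1. Pairs to the left have fewer, such as Zfp36 to Egr1 at -1.29.

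Levels of different genes were compared as RPKM, that is reads scaled to the length of the exons and to the depth of the library, with the exon length taken as the union of all annotated exons. Junb had the highest level in both tissues, 82.4 (95% CI 80.1 to 84.7) in the cornea and 112 (109 to 115) in the limbus. In the cornea the order went on with Ier2 at 42.4, Zfp36 at 41.5, Fos at 32.4, Jun at 22.3, Dusp1 at 17.8 and Egr1 at 6.83. In the limbus it went on with Jun at 66.7, Ier2 at 64.2, Zfp36 at 55.8, Dusp1 at 32.6, Fos at 30.1 and Egr1 at 22.5.

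The last 3 genes were Fosb, Atf3 and Nr4a1 in both tissues. Their levels in the cornea were 0.589, 0.427 and 0.0873, and in the limbus 1.88, 4.01 and 1.59. Intervals of neighbors overlapped for Ier2 and Zfp36 and for Fosb and Atf3 in the cornea, and for Jun and Ier2, for Dusp1 and Fos and for Fosb and Nr4a1 in the limbus. By these lengths Jun moved from rank 5 to rank 2, and Fos from rank 4 to rank 6. The order depends on the length used, which the intervals do not cover. For Zfp36 the union covered the whole gene span of 3470 bases. A shorter length would raise Zfp36 in both tissues and could change its place beside Ier2 and Jun. By RPKM Fos was the gene whose level was closest between the libraries, 32.4 and 30.1.

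The largest differences were found at low levels, although Egr1 and Jun were above 2-fold at higher ones. The 3 genes with a mean under 1000 normalized reads, Nr4a1, Atf3 and Fosb, had a median log2 ratio of 3.03, and the other 7 had a median of 0.39. Of the 4300 genes compared with a mean of at least 1000, 3.63% were at least 2-fold higher in the limbus, with a median of -0.20. Of the 7508 genes with a mean from 50 to 1000, 15.8% were, with a median of -0.04.

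Other genes of the pathway were taken from lists and are described by their counts, with medians to be read beside -0.05 for all genes compared. Counts beyond counting error are to be read beside 33.2% toward the limbus and 40.6% toward the cornea for all genes compared. Among 32 other early response genes with enough reads, 13 were beyond counting error toward the limbus and 14 toward the cornea (17 and 11 when scaled to total reads), and the median was -0.01. At the upper end were Ctgf, a matricellular protein (155 and 1762 reads, log2 ratio 3.60), Id1, an inhibitor of helix-loop-helix factors (662 and 3783, 2.61), and Nfil3, a leucine zipper repressor (55 and 300, 2.54). At the lower end were Homer1, a scaffold protein (274 and 88, -1.54), Arc, a cytoskeletal early gene best known from neurons (130 and 62, -0.97), and Plk2, a kinase (5441 and 3015, -0.76). The list as a whole was split between the tissues.

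AP-1 relatives outside the 10 genes showed no 2-fold difference in either direction among the 12 with enough reads, with 3 beyond counting error toward the limbus and 5 toward the cornea (6 and 3 when scaled to total reads). Few reads kept out Batf (3 corneal and 18 limbal), Batf3 (0 and 13) and Fosl1 (4 and 3), of which Batf and Batf3 had more reads in the limbus. Of the 12, besides Jund, those highest in the limbus were Atf5 (log2 ratio 0.59) and Jdp2 (0.12). Besides Fosl2, those lowest were Atf2 (-0.74) and Maff (-0.52). Among the 8 EGR, NR4A and KLF factors with enough reads, 4 were higher in each tissue beyond counting error. Klf2, known from endothelium and lymphocytes, had 59 corneal and 247 limbal reads, a log2 ratio of 2.16 (95% CI 1.75 to 2.60), and Nab2, a corepressor of EGR proteins, had 870 and 1264, a log2 ratio of 0.63. Klf10 was higher in the limbus by less, with a log2 ratio of 0.24 (95% CI 0.05 to 0.43). Klf4, a factor of the corneal epithelium, had 26458 and 10248 reads, which gave a log2 ratio of -1.27, and Klf6 had -0.65.

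Upstream of these genes, the 24 kinases and factors of the list had a median of -0.10, with 8 limbal and 11 corneal differences beyond counting error (10 and 7 when scaled to total reads). The MAP kinase p38 beta gene Mapk11 was the one with a 2-fold difference, with 911 corneal and 2030 limbal reads and a log2 ratio of 1.25. Elk3 (0.83) and Mkl1 (0.70), which act with SRF, followed. The kinase gene Rps6ka3 (-0.93), Mapk8, which encodes JNK1 (-0.85), and Creb1, which encodes CREB (-0.84), had the lowest ratios. Srf itself, singled out once its values were known, had 1004 corneal and 986 limbal reads, a log2 ratio of 0.07 (95% CI -0.06 to 0.20).

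Of 20 feedback inhibitors, differences beyond counting error favored the limbus for 8 and the cornea for 7 (9 and 4 when scaled to total reads). Socs3, an inhibitor of cytokine signaling, had 19 corneal and 187 limbal reads, a log2 ratio of 3.39 (95% CI 2.71 to 4.16). Dusp8 (19 and 115 reads, 2.69) and Socs1 (36 and 78, 1.21) followed, and Spred1, an inhibitor of RAS to ERK signaling, was lowest with 1924 and 543 reads and a log2 ratio of -1.73.

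Known targets of AP-1 and of ZFP36 had a median of 0.61 among the 15 with enough reads. Of these, 7 were beyond counting error toward the limbus and 3 toward the cornea (8 and 3 when scaled to total reads). Few reads kept out Timp1 (2 corneal and 92 limbal), Mmp9 (3 and 30), Ccl2 (1 and 9), Mmp10 (28 and 2) and Il6 (0 in both). Mmp3, the gene of stromelysin 1, went from 26 corneal to 8779 limbal reads, a log2 ratio of 8.50 (95% CI 7.94 to 9.11). Plaur, the urokinase receptor gene, had 14 and 52 reads (1.99), and Vegfa 193 and 510 (log2 ratio 1.498). The chemokine genes Cxcl1 (106 and 50 reads, -0.99) and Cxcl2 (107 and 54, -0.89) and the growth factor gene Hbegf (5354 and 3709, -0.43) were lower in the limbus.

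Heat shock genes are another group that tissue handling is known to induce. Of the 13 measured, 0 lay beyond counting error toward the limbus, 10 toward the cornea and 3 within it, with a median of -0.32. This split depended on the scaling, since scaling to total reads gave 5 toward the limbus and 7 toward the cornea, while the median remained below 0 with each of the 4 other scalings. All of these heat shock genes but Hsph1 had a mean of at least 1000 normalized reads, and all genes compared at that level had a median of -0.20. The lowest heat shock genes were Hsp90aa1 (6114 and 3864 reads, -0.57), Hspd1 (-0.54) and Hspb1 (14701 and 9500, -0.53). The highest were Hsph1 (0.12), Dnajb1 (0.02) and Hspa8 (0.02). Of 12 genes often used as references, 4 lay beyond counting error toward the limbus and 6 toward the cornea (6 and 5 when scaled to total reads), with a median of -0.09 that scaling to total reads would turn above 0. The reference genes ranged from Hprt (-1.03), Tbp (-0.58) and Ppia (-0.44) to Actb (0.39) and B2m (0.93), a range within which 5 of the 10 immediate early genes also lay. The part of tissue handling in any of these levels was not tested.

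**Figure D5:**
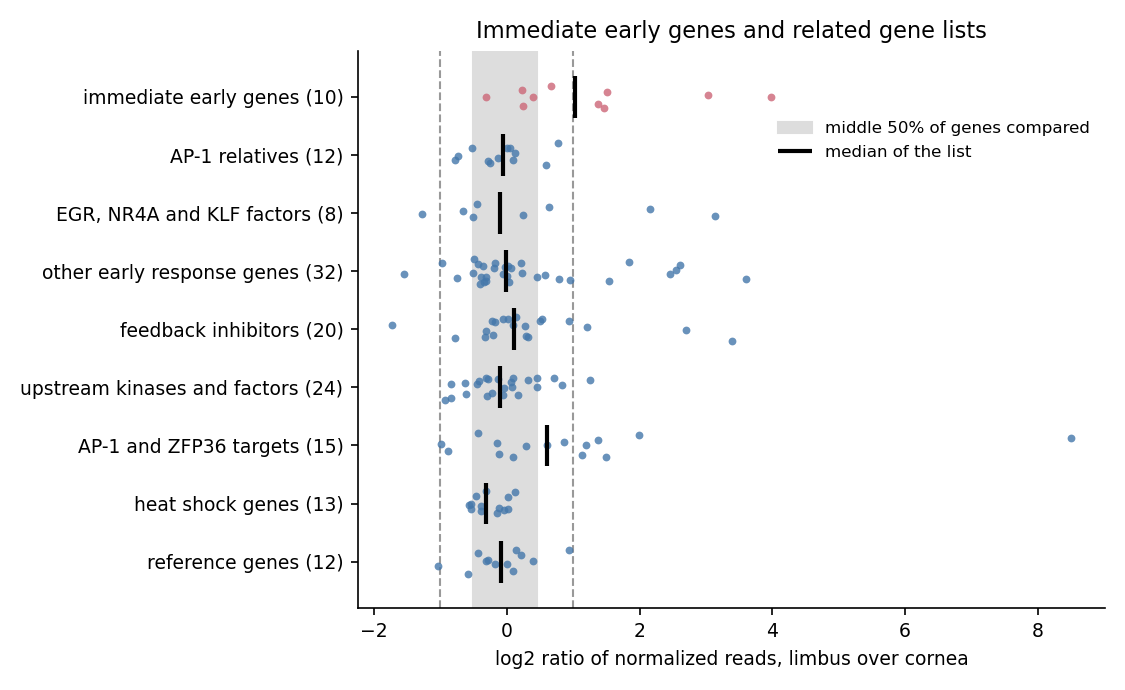
Log2 ratio of normalized reads, limbus over cornea (horizontal axis), for each gene with more than 3 reads in both libraries, by list, with the number of genes in parentheses and the black bar at the list's median. The immediate early genes (red, median 1.02) reach from -0.31 to 3.98, while the heat shock genes have a median of -0.32.

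The tissues also differed in their cell types, as far as marker genes show. Markers of the corneal epithelium (Krt12, Aldh3a1, Tkt and Krt5) were present in both, with 2483089 corneal and 1010059 limbal normalized reads in sum, and those of the limbal epithelium (Krt15, Gpha2 and Ifitm3) had 37434 and 377493. Summed reads were higher in the limbus for 13 of 15 marker lists, the exceptions being corneal epithelium and keratocyte (20098 and 11602). The keratocyte sum rested on Kera (12119 and 1423 reads), while Lum was level (log2 ratio -0.01) and Ptgds was higher in the limbus (186 and 1950 reads, 3.49).

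Several of the lists that differed in this way mark cells outside the epithelium. Skeletal muscle had 77.4 in the cornea and 9975 in the limbus, smooth muscle 76.4 and 1887, blood endothelium 232 and 2503, lymphatic endothelium 18.4 and 401, Schwann cells 54.2 and 1278 and melanocytes 297 and 1599. The fibroblast sum of 16788 and 34678 rested on Col1a1 (13776 and 30674 reads), whereas Dpt (-0.58) and Pdgfra (-0.45) were higher in the cornea beyond counting error and the list had a median of -0.45. Mast cell markers had 2.90 and 387, with Mcpt4 and Tpsb2 at 0 reads in the cornea, and macrophage and leukocyte markers had 553 and 1346. Conjunctival epithelium (Krt4, Krt13, Krt19 and Muc5ac) had 37824 and 230499, with Muc5ac at 1 read in each library. The authors counted keratin 19 among markers higher in the limbus when they checked the dissection. Markers of lens (743 and 8083) and photoreceptor (362 and 3531) were also found. The part of these cell types in the levels of the immediate early genes was not tested, and in this design they cannot be told apart from the tissue.

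Other annotated genes overlap 5 of the 10, and whether reads were counted by strand is not given in the sources used here. On the opposite strand, the protein-coding gene Prdx2 (5764 corneal and 5671 limbal reads) overlaps Junb, and Ergic1 (2257 and 2851 reads) overlaps Dusp1, which also spans pseudogenes. Antisense or small RNA genes overlap Jun (Junos), Zfp36 (Gm44710) and Atf3 (Gm24748). Nothing overlaps Fos, Fosb, Egr1, Ier2 or Nr4a1 in the annotation.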

How the data were processed

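Stranded total RNA libraries of pooled corneal buttons and limbal rims were sequenced on an Illumina NextSeq. The authors used CLC Genomics Workbench for trimming and for mapping to mouse build GRCm38 (mm10), and name TMM, a trimmed mean of log ratios, as normalization. The authors deposited 1 table with, per gene, the normalized signal averaged over libraries, and their own comparison, which consists of log2 fold changes, standard errors, p-values and adjusted p-values. The deposited log2 fold change and standard error were used only to place reads and are not printed, and the p-values were not used. The layout is that of a DESeq result, a tool the methods do not name. Of 40904 rows, 17484 named no gene and stayed out. The identifier column was not used, since only 2 of 18556 identifiers that name a RefSeq gene named the gene of their row.

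Of the 17442 means above 0, 17408 were within 0.001 of a whole step of a weighted sum of reads from 2 libraries, and the largest distance was 0.0101 of a step. In this sum 109 corneal reads weigh as much as 102 limbal ones. The mean allowed 2 to 99 pairs of reads for an immediate early gene, and the pair was taken that a shrinkage model fitted to the table placed closest to the fold change and standard error. The miss was at most 0.001 in sum for 17441 genes, and 74 near ties were settled by the dispersion. In simulated reads, with fold changes and standard errors made by the same fitted model, the method found 17044 of 17044 pairs. This tests whether pairs can be told apart under that model, and not whether the model holds for these data. No count table was used, so reads are derived values, and genes with 3 reads or fewer in a library stayed out of counts and medians.

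The genes and all lists were chosen with earlier results of these data known. From each list, the text names up to 3 genes with the highest and 3 with the lowest ratio among those with at least 50 reads in 1 library, and members of the same protein families, except 1 gene that is not reported here. Per-length levels and overlaps used GENCODE M21 (GRCm38), and shares within a family used exact binomial intervals, pair ratios within a library exact conditional odds ratio intervals and levels exact Poisson intervals. Python 3.11.15, numpy 2.4.6, scipy 1.17.1, pandas 2.3.3 and matplotlib 3.10.9 were used.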

Additional observations from a re-analysis of the deposited data

How the results depend on the processing

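Each log2 ratio was recomputed with 4 other scalings, a pseudocount of 1 normalized read and reads placed by the fold change or the standard error alone. None of the 70 values changed its sign, and 59 moved by less than the counting interval of the gene. Scaling to total reads shifted every log2 ratio by 0.21, TMM on the recovered reads by 0.02, centring on the median by 0.06 and centring on the reference genes by 0.09. Fos lay between -0.31 and -0.11, Egr1 between 1.51 and 1.72, Jun between 1.37 and 1.58, and Nr4a1 between 3.81 and 4.18. The number of genes at least 2-fold higher in the limbus was 5 with each of these and with either filter on low reads, 6 with a 1.5-fold threshold and 2 with a 3-fold threshold. Depth limits Nr4a1 and Atf3 most, with 8 and 24 reads in the cornea. No paired analysis was possible because the deposited table holds no value per numbered sample, and for the same reason leaving out replicates was not run.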
